A study of Mus musculus with 8 samples.

Results

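Fibroblasts, pancreatic stellate cells and smooth muscle cells form the connective tissue of the pancreas, and 35 of their genes were followed here in whole mouse pancreas: cytoskeletal and contractile genes, growth factor receptors, non-collagen matrix genes and genes of collagen processing. They were chosen by symbol from knowledge of these cells, all 35 were found, each under 1 of the 36432 gene IDs in the tables, and 32 had enough signal to be tested. In the healthy pancreas, stellate cells lie quiet around acini and store retinoids. After injury they take on a myofibroblast form, with smooth muscle actin in the cytoskeleton and abundant secretion of matrix, the process behind fibrosis in pancreatitis and around pancreatic tumours. Many of the 35 genes are not limited to 1 cell type: vimentin is also made by endothelial cells and leukocytes, and smooth muscle actin by vessel walls.

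Whole pancreas RNA was sequenced in 4 libraries of the genotype Ptf1a-Cre +/KI; Gata6 lox/lox and in 4 control libraries of the genotype Ptf1a-Cre +/KI. The mice were aged 6 to 8 weeks and of a strain given as mixed. All 8 libraries thus come from carriers of Cre recombinase knocked in at one copy of Ptf1a, a gene of pancreatic progenitors and acinar cells. Ptf1a-Cre acts in the epithelial lineages that give rise to acini, ducts and islets, whereas pancreatic fibroblasts descend from mesenchyme. Which cells made the transcripts described here was not tested. The comparison asks how gene levels differ when Gata6, a zinc finger transcription factor, is floxed in such mice. Nothing in the labels says whether each library is a separate mouse, so p-values measure the spread between these samples.

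Levels are rescaled FPKM, the deposited fragments per kilobase all divided by 100000 to give numbers of a readable size, which leaves the scaling between libraries as deposited. The deposited values summed to between 2.34e+10 and 1.3e+11 in the 4 libraries labelled Gata6-deleted and between 1.42e+11 and 1.86e+11 in the controls. They compare genes per length, but 1 unit is no fixed number of transcripts. Implied fragments, worked out from the deposited intervals, totalled 5356211 to 9222755 in the libraries labelled Gata6-deleted and 7124469 to 8247614 in the controls. Gata6 itself stood at 4.81, 5.12, 4.90 and 4.12 in the libraries labelled Gata6-deleted, against 2.76, 2.12, 2.62 and 2.45 in the controls, and was called higher (log2 fold change 0.72, SE 0.11, Benjamini-Hochberg adjusted p = 0.0442 in limma; exact two-sided permutation p = 0.0286, the smallest that 4 against 4 allows). Leaving out 1 library at a time gave adjusted p-values of 0.0324 to 0.183. This goes against the label, although a gene-level value also counts exons outside a floxed part, and the libraries are therefore called deletion-labelled libraries 1 to 4. Deletion-labelled libraries 1, 3 and 4 and control 1 had titles starting with BKD and expressed the Y-linked Eif2s3y. Deletion-labelled library 2 (BSH) and controls 2 to 4 (ASK) expressed Xist, so title prefix and sex could be separated from genotype only in part. Deletion-labelled libraries 1 and 3 stood apart from all others, with the summed level of 17 acinar genes at 4103 and 47080, against 240200 and 314700 in deletion-labelled libraries 2 and 4 and 430600 to 613200 in the controls.

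All 32 tested genes had a positive log2 fold change with the deposited scaling, and Tpm2 a negative one with median-ratio scaling or quantile normalization; none passed the test. The largest differences were in periostin (Postn), biglycan (Bgn), fibronectin (Fn1), osteonectin (Sparc) and lumican (Lum), and the smallest in the muscle genes Tpm2 and Myl9. In limma, 0 of 32 genes were called at a Benjamini-Hochberg adjusted p under 0.05, where 0.22% of the 11832 genes tested were called higher and 0.194% lower. The adjusted p-values ran from 0.103 for Postn to 0.936 for Tpm2. At an unadjusted p under 0.05 there were 24 of 32 genes higher and 0 lower, against 17.8% of all tested genes higher and 12.2% lower. Positive fold changes were found in 57.8% of all tested genes. The groups did not overlap, with every deletion-labelled library above every control, in 13 of 32 genes, against 10.9% of all tested genes, and they lay apart in the other direction in 0, against 7.61%. The median log2 fold change was 0.96 over the 32 genes and 0.10 over all tested genes, and 13 of the 32 were at or above 1. Whole tissue was sequenced, so more cells of a type and more RNA per cell cannot be told apart.

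**Figure D1:**
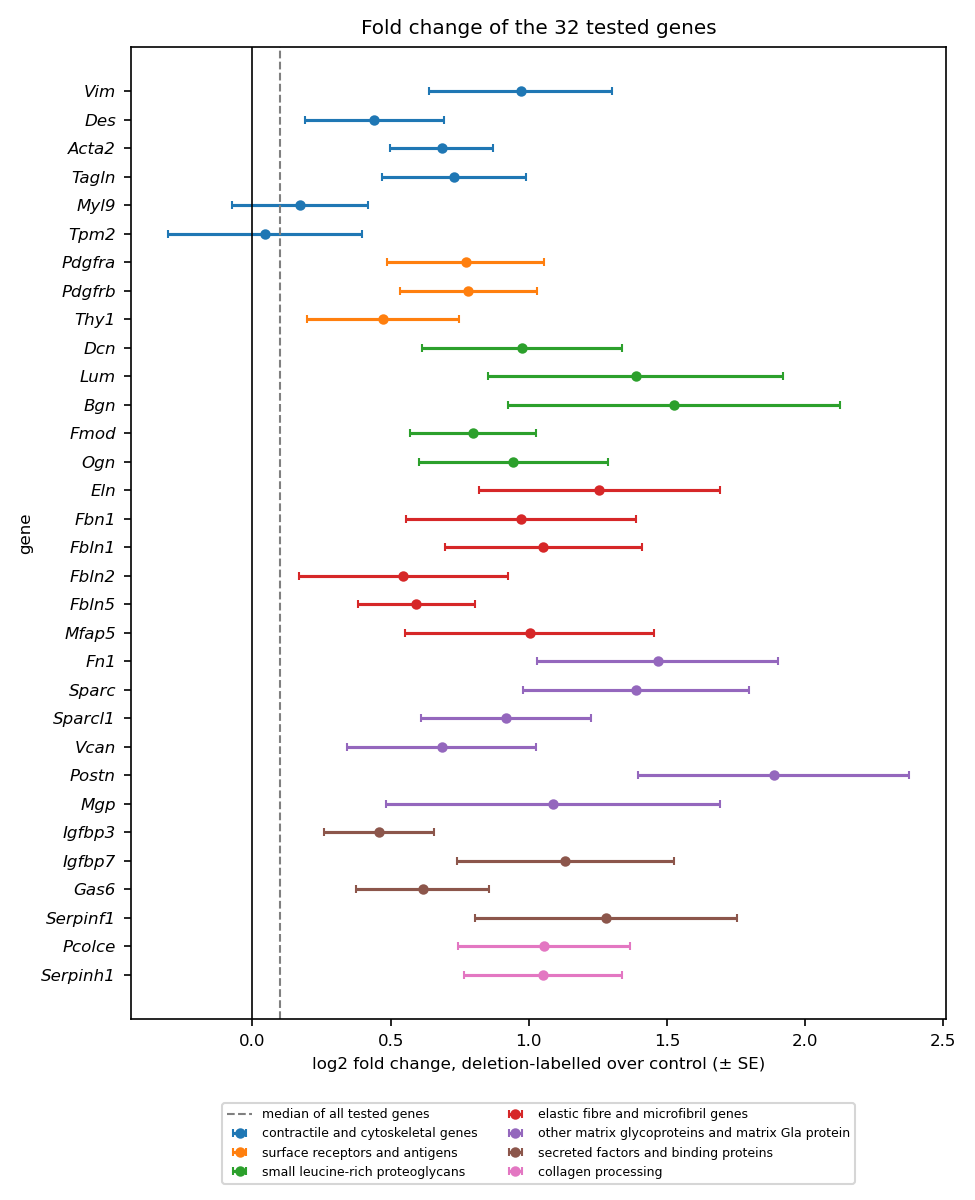
Log2 fold change (x axis, deletion-labelled over control, with SE) of the 32 tested genes (y axis), coloured by role, with the median of all 11832 tested genes as a dashed line. With the deposited scaling every point lies to the right of 0 (Tpm2 is negative with median-ratio scaling or quantile normalization), from 0.04 for Tpm2 to 1.89 for Postn, and the SE bars of Tpm2 and Myl9 cross 0.

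The deletion-labelled libraries differed widely from each other. The median log2 difference of the 32 genes from the control mean was 1.45, 0.38, 1.42 and 0.25 in deletion-labelled libraries 1 to 4, and lay between -0.13 and 0.12 in the controls. Deletion-labelled libraries 1 and 3 were the 2 highest of the 4 in 30 of the 32 genes, against 40.5% of all tested genes; the exceptions were Des and Fmod. Library 1 was above every control in 30 of 32 genes (44% of all tested genes), library 2 in 20 (25.6%), library 3 in 31 (43.6%) and library 4 in 18 (26%). Libraries 2 and 4 were both above every control in 13 genes, against 12.6% of all tested genes. In a fit without deletion-labelled libraries 1 and 3, the median of the 32 genes was 0.36 and that of all genes 0.0047. In that fit 28 of the 32 genes were positive, 0 were called at an adjusted p under 0.05 (0.093% of all genes called higher) and 8 had an unadjusted p under 0.05, against 7.58% of all genes higher. Without deletion-labelled library 4, 16 of 32 genes were called higher, against 11.5% of all genes. Within the BKD titles the median was 0.90 and within the ASK and BSH titles 0.43. With the prefix as a covariate, coded as BKD or not, the median was 0.74. This coding coincides with sex as read from Eif2s3y and Xist. Among the ASK and BSH titles, the only deletion-labelled library is also the only BSH title. In both prefix groups 0 of 32 genes were called (0% and 0.735% of all genes called higher), with 1 and 13 at an unadjusted p under 0.05, against 3.23% and 7.94% of all genes higher; each has a single library on 1 side, assumed to vary like the others.

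**Figure D2:**
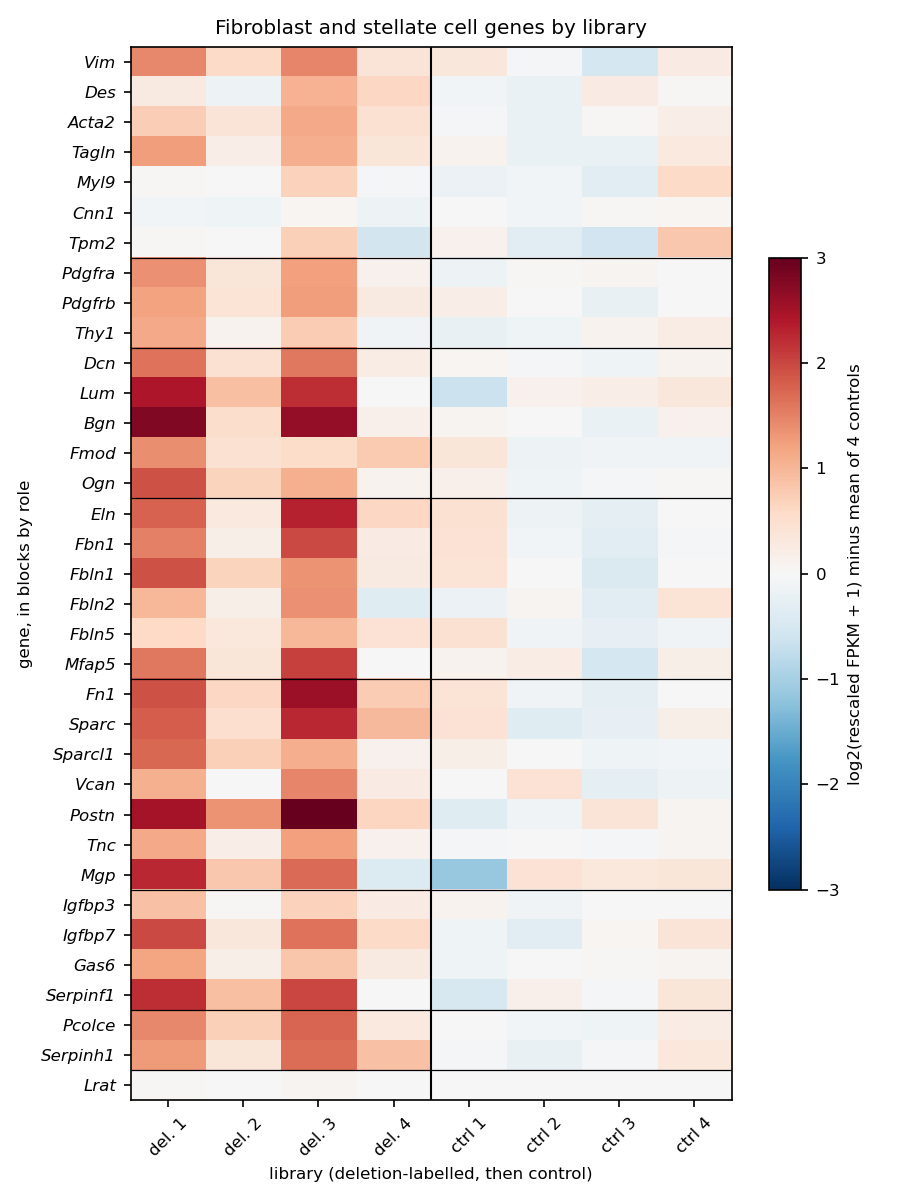
Heat map of the 35 genes (rows, in blocks by role) in 4 deletion-labelled and 4 control libraries (columns), coloured by log2(rescaled FPKM + 1) minus the mean of the 4 controls. The columns of deletion-labelled libraries 1 and 3 are the deepest red, with medians of 1.45 and 1.42, while those of libraries 2 and 4 are pale, with 0.38 and 0.25. In Tpm2, Myl9 and Cnn1 control 4 is higher than deletion-labelled library 1.

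The cytoskeletal and contractile genes had the smallest median of the role groups with several genes, 0.56 over 6 tested genes. Vim, which encodes the intermediate filament vimentin of mesenchymal cells, had levels of 111, 60.5, 114 and 53.0 in deletion-labelled libraries 1 to 4, against 51.3, 39.0, 27.4 and 47.5 in controls 1 to 4 (log2 fold change 0.97, SE 0.33, limma adjusted p = 0.122). Acta2 encodes alpha smooth muscle actin, the usual mark of activated stellate cells and of vascular smooth muscle. It stood at 7.20, 5.42, 9.81 and 5.77 in the deletion-labelled libraries, against 3.75, 3.27, 4.03 and 4.67 in the controls (log2 0.68, SE 0.19, adjusted p = 0.104). In both genes every deletion-labelled library was above every control, and for Acta2 library 3 was the highest. Tagln, the actin-binding protein transgelin, had 9.76, 4.22, 8.73 and 4.87 in the deletion-labelled libraries and 3.92, 2.94, 2.96 and 4.55 in the controls (log2 0.73, SE 0.26, adjusted p = 0.127). Only library 2 overlapped the controls, at a level below control 4. Des, the muscle intermediate filament desmin and a marker of quiescent stellate cells in rodents, had 1.87, 1.13, 3.92 and 2.63 in the deletion-labelled libraries against 1.27, 1.07, 1.8 and 1.45 in the controls (log2 0.44, SE 0.25, adjusted p = 0.252).

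In the other muscle genes the groups overlapped. Tpm2, a beta tropomyosin of the thin filament, was at 3.31, 3.18, 5.93 and 1.86 in the deletion-labelled libraries and at 3.61, 2.31, 1.82 and 6.32 in the controls (log2 0.04, SE 0.35, adjusted p = 0.936), and control 4 was the highest of all 8. Its sign turned under median-ratio scaling (-0.11) and quantile normalization (-0.12). Myl9, a regulatory light chain of smooth muscle myosin, averaged 6.71 ± 2.08 in the deletion-labelled libraries and 5.88 ± 2.11 in the controls (SD, n = 4 each; log2 0.17, SE 0.25, adjusted p = 0.633). Cnn1, the smooth muscle protein calponin, was too low to be tested, at 0.0753 to 0.26 in the deletion-labelled libraries and 0.129 to 0.262 in the controls, from 2 to 22 implied fragments. Values of Tpm2 and Myl9 rested on as few as 2.26 and 5.92 implied fragments in a library, and those of Acta2 on at least 50.9. Actins and tropomyosins share sequence with near relatives, so their levels are uncertain.

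Upstream sequences are given for a pair of contractile genes, Acta2 and Myl9, and for a pair of matrix genes with large fold changes, Bgn and Sparc. They are the 250 bases before the annotated start in RefSeq on GRCm38.p6, read 5′ to 3′ on the gene's strand, at chr19:34255374-34255623 (minus strand) for Acta2, chr2:156775214-156775463 (plus strand) for Myl9, chrX:73483351-73483600 (plus strand) for Bgn and chr11:55420081-55420330 (minus strand) for Sparc. Capitals mark an exact CArG box, the binding motif of serum response factor, a regulator of contractile genes. Of the contractile pair, Myl9 held an exact match and Acta2 did not.
Acta2: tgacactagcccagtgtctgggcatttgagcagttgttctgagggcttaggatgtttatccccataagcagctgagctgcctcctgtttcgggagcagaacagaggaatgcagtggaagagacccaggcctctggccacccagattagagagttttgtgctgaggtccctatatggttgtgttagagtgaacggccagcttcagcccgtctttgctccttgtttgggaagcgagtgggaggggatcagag
Myl9: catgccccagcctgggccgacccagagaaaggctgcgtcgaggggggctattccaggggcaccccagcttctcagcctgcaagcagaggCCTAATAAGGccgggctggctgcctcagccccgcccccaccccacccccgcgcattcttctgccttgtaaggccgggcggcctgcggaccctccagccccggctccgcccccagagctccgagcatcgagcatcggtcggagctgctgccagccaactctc
Bgn: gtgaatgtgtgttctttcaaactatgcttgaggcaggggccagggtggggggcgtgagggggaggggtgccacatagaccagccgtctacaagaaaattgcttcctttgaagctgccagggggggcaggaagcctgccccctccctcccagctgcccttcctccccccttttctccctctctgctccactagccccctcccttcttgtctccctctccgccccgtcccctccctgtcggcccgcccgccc
Sparc: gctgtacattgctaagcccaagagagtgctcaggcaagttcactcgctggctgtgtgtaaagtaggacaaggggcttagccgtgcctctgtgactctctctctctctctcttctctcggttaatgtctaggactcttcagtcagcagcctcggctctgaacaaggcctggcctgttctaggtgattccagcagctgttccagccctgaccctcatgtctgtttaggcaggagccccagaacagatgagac
The CArG box was searched on both strands, and only exact matches were counted. Acta2 holds ccctatatgg and ccttgtttgg, each 1 base away from an exact match, and these were not counted. Of the 35 genes, 25 had a sequence in the RefSeq promoter table, with 29 promoters in all. Of these 29, 1 held an exact match in the 300 bases around its start, that of Myl9, 161 bases before it. The share over the table was 1.63% of 32851 promoters.

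The receptors and surface antigens of fibroblasts followed the pattern of deletion-labelled libraries 1 and 3. Pdgfra, a receptor for platelet-derived growth factor and a marker of fibroblasts, had 7.41, 3.13, 6.56 and 2.50 in the deletion-labelled libraries, against 1.91, 2.33, 2.42 and 2.26 in the controls (log2 0.77, SE 0.28, limma adjusted p = 0.131). Pdgfrb, its partner on pericytes and stellate cells, had 5.29, 2.65, 5.54 and 2.28 in the deletion-labelled libraries and 2.14, 1.75, 1.37 and 1.76 in the controls (log2 0.78, SE 0.25, adjusted p = 0.114). Both genes were without overlap, but library 4 lay only just above the highest control. Thy1, a surface glycoprotein of fibroblasts that T cells also carry, had 9.53, 4.19, 7.22 and 3.47 in the deletion-labelled libraries against 3.15, 3.43, 4.20 and 4.66 in the controls (log2 0.47, SE 0.27, adjusted p = 0.258), and libraries 2 and 4 lay within the controls.

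The small leucine-rich proteoglycans, which bind collagen fibrils and set their spacing, included Dcn, the most abundant of the 35 genes in the controls. Dcn encodes decorin and lies beside Lum on chromosome 10 (mm9, 96942245 to 96980777 and 97028135 to 97035337). Dcn had 240.4, 106, 233 and 90.4 in the deletion-labelled libraries, against 80.0, 75.4, 70.1 and 82.9 in the controls (log2 0.97, SE 0.36, limma adjusted p = 0.132). The controls differed little, with an SD of 5.58 around a mean of 77.1 (n = 4). Lum, lumican, had 47.6, 16.0, 41.5 and 8.05 in the deletion-labelled libraries and 4.76, 8.88, 9.46 and 10.4 in the controls (log2 1.39, SE 0.53, adjusted p = 0.138), with library 4 within the controls. Bgn, biglycan, had the largest fold change of the 5, with 120.3, 24.4, 110.2 and 18.8 in the deletion-labelled libraries against 17.8, 16.6, 14.4 and 18.4 in the controls (log2 1.53, SE 0.60, adjusted p = 0.143). Bgn in library 4 exceeded the highest control by less than the SD of the controls, 1.78, and its fold change without libraries 1 and 3 was 0.34. Implied fragments for Bgn were 9110, 596, 6297 and 149 in deletion-labelled libraries 1 to 4, against 138, 177, 135 and 347 in controls 1 to 4.

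Fmod and Ogn, fibromodulin and osteoglycin, were lower in level. Fmod had 5.07, 2.14, 2.36 and 2.98 in the deletion-labelled libraries, against 1.95, 1.08, 1.15 and 1.12 in the controls (log2 0.80, SE 0.23, limma adjusted p = 0.106). It did not overlap, and library 3 was among its lower values rather than its higher ones. Its control values rested on only 6.5 to 16.8 implied fragments. Ogn had 23.8, 9.41, 12.8 and 6.10 in the deletion-labelled libraries and 6.24, 5.02, 5.32 and 5.72 in the controls (log2 0.94, SE 0.34, adjusted p = 0.129), with library 4 within the controls. All 5 proteoglycans had an unadjusted p under 0.05, as had 17.8% of all tested genes in the higher direction.

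**Figure D3:**
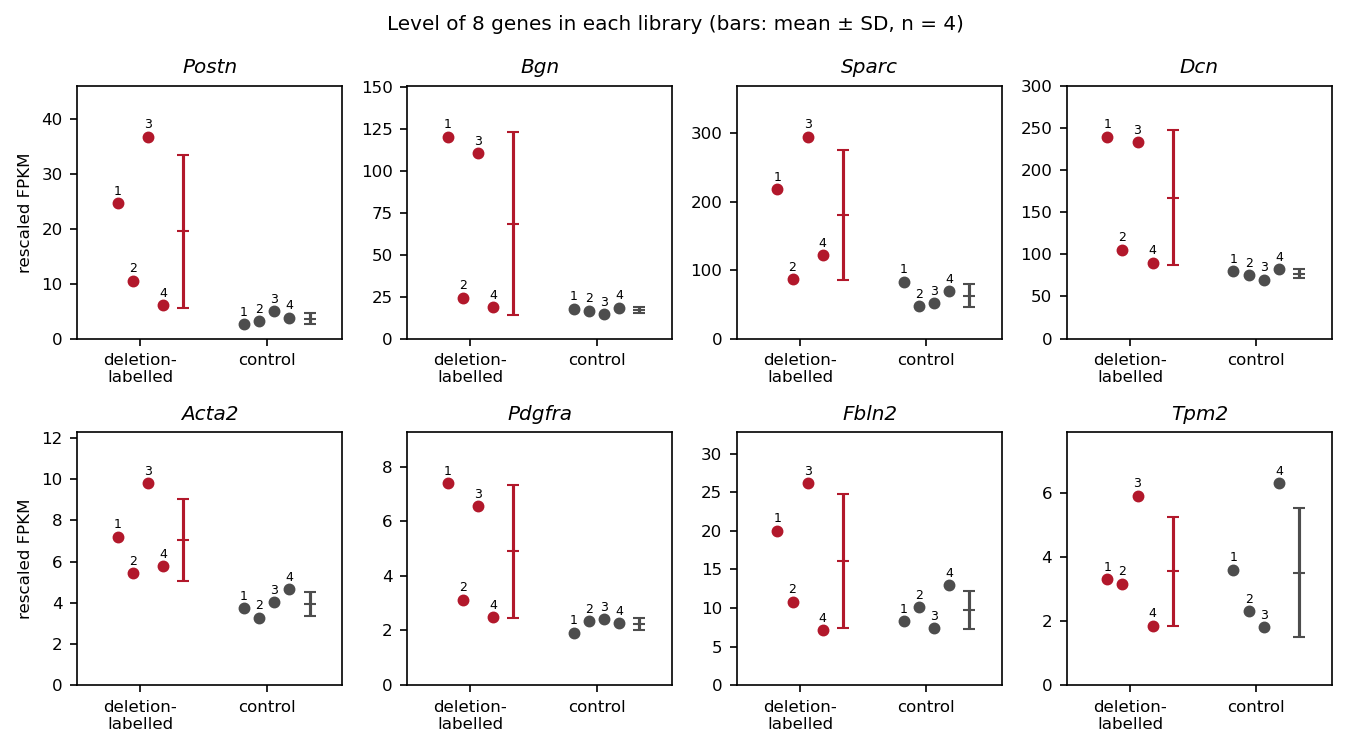
Level in rescaled FPKM (y axis, from 0) of 8 genes in each deletion-labelled (left) and control (right) library; numbers are library numbers, and bars give mean and SD (n = 4). In Postn, Bgn, Sparc, Dcn, Acta2 and Pdgfra all deletion-labelled points lie above all controls, with libraries 1 and 3 highest, while in Fbln2 and Tpm2 the groups overlap.

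Genes of elastic fibres and microfibrils had a median log2 fold change of 0.99 over 6 genes, and in each of them the groups overlapped. Eln, which encodes elastin, the core of elastic fibres, had 17.2, 5.50, 25.4 and 7.20 in the deletion-labelled libraries, against 6.23, 3.79, 3.29 and 4.31 in the controls (log2 1.255, SE 0.44, limma adjusted p = 0.123). Fbn1, the microfibril protein fibrillin, had 13.3, 4.67, 18.8 and 4.98 in the deletion-labelled libraries and 5.85, 3.75, 3.06 and 3.92 in the controls (log2 0.97, SE 0.42, adjusted p = 0.162). In both genes control 1 was the highest control, above library 2 and, in Fbn1, also above library 4. Fbln1, a fibulin of basement membranes and elastic fibres, had 19.0, 7.42, 12.6 and 5.35 in the deletion-labelled libraries against 6.06, 4.37, 2.94 and 4.26 in the controls (log2 1.05, SE 0.36, adjusted p = 0.121). Mfap5, a microfibril-associated glycoprotein, had 32.7, 13.7, 46.1 and 10.4 in the deletion-labelled libraries and 11.3, 12.2, 6.90 and 11.8 in the controls (log2 1.00, SE 0.45, adjusted p = 0.174). For both, library 4 lay within the controls. Fbln2 had 20.04, 10.8, 26.2 and 7.13 in the deletion-labelled libraries against 8.33, 10.1, 7.35 and 13.0 in the controls (log2 0.55, SE 0.38, adjusted p = 0.334), and library 4 was the lowest of all 8. Fbln5, a fibulin needed for elastic fibre assembly, averaged 2.50 ± 0.77 in the deletion-labelled libraries and 1.33 ± 0.55 in the controls (SD, n = 4 each; log2 0.59, SE 0.21, adjusted p = 0.127).

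The other matrix glycoproteins, with matrix Gla protein, had the highest median of the role groups, 1.24 over 6 tested genes. Postn (mm9 chromosome 3, 54165031 to 54194961) encodes periostin, a matricellular protein of activated fibroblasts. It had 24.7, 10.5, 36.8 and 6.13 in the deletion-labelled libraries, against 2.56, 3.21, 4.96 and 3.79 in the controls. Its log2 fold change of 1.89 (SE 0.49, limma adjusted p = 0.103) was the largest of the 32, and the groups did not overlap. Without deletion-labelled libraries 1 and 3 it was 1.00, and within the BKD and the ASK and BSH titles 2.42 and 1.22. Fn1, fibronectin, had 61.1, 24.7, 97.4 and 27.2 in the deletion-labelled libraries and 21.2, 14.5, 12.5 and 15.4 in the controls (log2 1.47, SE 0.43, adjusted p = 0.110). Sparc (mm9 chromosome 11, 55208002 to 55233582), the collagen-binding protein osteonectin, had 218, 86.9, 295 and 122 in the deletion-labelled libraries against 83.2, 47.7, 51.2 and 69.2 in the controls (log2 1.39, SE 0.41, adjusted p = 0.109). Neither gene overlapped, and library 3 was the highest in both.

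Matrix Gla protein (Mgp), an inhibitor of calcification, differed widely within both groups. It stood at 154, 55.2, 104 and 23.4 in the deletion-labelled libraries, against 13.8, 42.8, 39.1 and 40.8 in the controls (log2 1.09, SE 0.60, limma adjusted p = 0.240). Library 4 and control 1 were both below the other libraries. Vcan, the large proteoglycan versican, had 2.93, 0.876, 4.21 and 1.23 in the deletion-labelled libraries and 0.902, 1.58, 0.545 and 0.695 in the controls (log2 0.68, SE 0.34, adjusted p = 0.204), from at most 37.4 implied fragments. Sparcl1, a relative of osteonectin found around vessels, averaged 16.0 ± 7.75 in the deletion-labelled libraries and 7.34 ± 0.80 in the controls (SD, n = 4 each; log2 0.92, SE 0.31, adjusted p = 0.119). Tnc encodes tenascin C, a protein of wounds and tumour stroma, and was below the level needed for testing. It was at 1.34, 0.223, 1.49 and 0.160 in the deletion-labelled libraries, from 264, 7.82, 240.2 and 5.74 implied fragments, and at 0.0203, 0.0699, 0.0195 and 0.125 in the controls, from 0.254 to 4.999.

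Secreted factors and binding proteins included Igfbp7, a binding protein of insulin-like growth factors found in vessels and stroma. It had 153, 48.6, 119.9 and 57.2 in the deletion-labelled libraries, against 34.6, 30.2, 40.1 and 50.3 in the controls (log2 1.13, SE 0.39, limma adjusted p = 0.123), with library 2 below control 4. Serpinf1, the anti-angiogenic factor PEDF, had 51.0, 19.9, 43.7 and 10.3 in the deletion-labelled libraries and 7.07, 11.5, 9.97 and 13.3 in the controls (log2 1.28, SE 0.47, adjusted p = 0.132), and library 4 lay within the controls. Gas6, a ligand of the receptor tyrosine kinases AXL, TYRO3 and MERTK, had 38.7, 18.9, 30.4 and 20.1 in the deletion-labelled libraries against 15.0, 16.6, 17.1 and 17.7 in the controls (log2 0.62, SE 0.24, adjusted p = 0.141). Gas6 did not overlap, and its controls were close together, with an SD of 1.18 (n = 4). Igfbp3 had 10.8, 5.52, 9.33 and 6.55 in the deletion-labelled libraries and 5.88, 4.94, 5.35 and 5.50 in the controls (log2 0.46, SE 0.20, adjusted p = 0.163), with library 2 within the controls.

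Both collagen processing genes were without overlap between the groups, as were 10.9% of all tested genes in the higher direction. Serpinh1 encodes HSP47, the collagen chaperone of the endoplasmic reticulum. It had 31.9, 16.5, 42.4 and 23.8 in the deletion-labelled libraries, against 12.1, 10.6, 12.2 and 15.8 in the controls (log2 1.05, SE 0.28, limma adjusted p = 0.103). Pcolce, which speeds the cleavage of procollagen, had 31.1, 18.3, 38.5 and 13.5 in the deletion-labelled libraries and 10.6, 10.004, 9.76 and 12.8 in the controls (log2 1.05, SE 0.31, adjusted p = 0.110). Library 3 was the highest in both genes. Lrat, the enzyme that esterifies retinol for storage and a marker of quiescent stellate cells, was at 0.0296 and 0.0604 in deletion-labelled libraries 1 and 3, from 6 and 11 implied fragments, and was listed at 0 in libraries 2 and 4 and in all 4 controls. Gfap, another marker of quiescent stellate cells, stayed at or under 0.0618 in the deletion-labelled libraries and 0.0885 in the controls. Quiescent stellate cells could therefore not be followed through these markers at this depth.

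Further lists of connective tissue genes were read beside these. Over all tested genes, limma called 0.22% higher and 0.194% lower, and 17.8% were higher and 12.2% lower at an unadjusted p under 0.05. The groups did not overlap in 10.9% of all tested genes in the higher direction and in 7.61% in the lower. Of 25 other matrix genes, all tested, 0 were called (19 at an unadjusted p under 0.05, all higher) and the groups did not overlap in 11, with a median log2 fold change of 0.91 and per-library medians of 1.48, 0.49, 1.502 and 0.25. Col3a1, a fibrillar collagen chain, had 161, 70.1, 398 and 106 in the deletion-labelled libraries against 62.6, 42.9, 40.96 and 54.6 in the controls (log2 1.56, SE 0.50, limma adjusted p = 0.114). Col1a2, a chain of type I collagen, had 90.8, 25.1, 145 and 36.8 in the deletion-labelled libraries and 28.7, 18.7, 18.9 and 21.3 in the controls (log2 1.42, SE 0.52, adjusted p = 0.130). Both were highest in library 3, and in Col1a2 library 2 lay below control 1. Of 31 further fibroblast and stellate cell genes, 30 were found by symbol, 16 were tested and 0 were called (5 at an unadjusted p under 0.05). The groups did not overlap in 2, the median was 0.61 and Hand1 was listed at 0 in all 8 libraries. C3, a complement component, had 241, 92.7, 281 and 73.4 in the deletion-labelled libraries against 60.3, 41.01, 33.985 and 56.2 in the controls (log2 1.63, SE 0.47, adjusted p = 0.106). Gsn, the actin-severing protein gelsolin, had 228, 157, 105 and 98.3 in the deletion-labelled libraries and 106, 108, 104 and 105 in the controls (log2 0.38, SE 0.30, adjusted p = 0.384), so libraries 1 and 2 were its highest. Fap, a protease of activated fibroblasts, had the lowest fold change of this list, at 2.10, 1.06, 1.67 and 0.907 in the deletion-labelled libraries and 0.878, 1.71, 1.22 and 1.53 in the controls (log2 0.05, adjusted p = 0.890). Of 18 smooth muscle and pericyte genes, 10 were tested and 0 were called (3 at an unadjusted p under 0.05). The groups did not overlap in 2, and the median was 0.37. Tpm1, an alpha tropomyosin, had 37.3, 14.6, 25.8 and 14.2 in the deletion-labelled libraries against 13.5, 12.7, 14.5 and 13.8 in the controls (log2 0.60, SE 0.30, adjusted p = 0.203). Rgs5, a G protein regulator of pericytes, had 13.1, 8.38, 11.0 and 6.19 in the deletion-labelled libraries and 8.39, 5.60, 6.47 and 7.05 in the controls (log2 0.40, SE 0.23, adjusted p = 0.244). Library 1 was the highest in both, and in both the groups overlapped. Myh11, the smooth muscle myosin heavy chain, had the lowest fold change of this list (log2 0.06, limma adjusted p = 0.798). It was at 1.22, 1.06, 2.02 and 1.32 in the deletion-labelled libraries against 1.16, 1.21, 1.41 and 1.35 in the controls. Notch3, of the same list, had 1.59, 1.14, 2.08 and 1.32 against 0.871, 0.852, 0.849 and 0.956 (log2 0.41, SE 0.16, limma adjusted p = 0.144). In Notch3 every deletion-labelled library was above every control. Of 15 genes that respond to or encode transforming growth factor beta, 12 were tested and 0 were called (6 at an unadjusted p under 0.05). The groups did not overlap in 3, and the median was 0.92. Thbs1, the matricellular protein thrombospondin, had 22.2, 4.63, 18.4 and 2.90 in the deletion-labelled libraries against 2.55, 2.17, 1.64 and 2.76 in the controls (log2 1.62, SE 0.56, adjusted p = 0.123). Tgfbi, a matrix protein induced by this factor, had 16.9, 5.80, 17.0 and 3.38 in the deletion-labelled libraries and 3.74, 3.60, 3.26 and 3.52 in the controls (log2 1.13, SE 0.44, adjusted p = 0.142), with library 4 within the controls.

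Markers of other cells also differed between libraries, and their part in the results was not tested. The counts below stand beside the same shares over all tested genes. In limma, 0.22% were called higher and 0.194% lower, and 17.8% were higher and 12.2% lower at an unadjusted p under 0.05. Without overlap were 10.9% in the higher direction and 7.61% in the lower. The summed level of 18 macrophage and neutrophil genes was 1120.0, 348.6, 1001 and 275.8 in deletion-labelled libraries 1 to 4 and 145.5 to 249.9 in the controls, with a median log2 fold change of 1.59 over 17 tested genes, 0 of them called, 15 at an unadjusted p under 0.05 (all higher) and 12 without overlap. Acinar genes ran the other way, with a median of -2.97 over 16 tested genes, all negative, 0 called, 9 at an unadjusted p under 0.05 and 12 without overlap, and per-library medians of -6.75, -1.10, -3.29 and -0.69. Adipocyte genes had a median of 1.59 over 13 tested genes, 2 of them called higher (Plin4 and Cidec), 12 at an unadjusted p under 0.05 and 10 without overlap, but their per-library medians of 1.86, 1.64, 1.28 and 1.44 did not set libraries 1 and 3 apart. Endothelial genes had a median of 0.06 over 11 tested genes, 2 of them lower at an unadjusted p under 0.05 and without overlap in 2, with summed levels of 48.4 to 70.6 in the deletion-labelled libraries and 54.5 to 67.0 in the controls. Lymphocyte genes had a median of 0.96 over 9 tested genes, 6 at an unadjusted p under 0.05 and 1 without overlap, and their summed level in control 4, 180.5, was within the range of the deletion-labelled libraries, 109.7 to 424. Mesothelial genes had a median of 0.61 over 9 tested genes, duct genes 0.13 over 7, islet genes 0.75 over 11, lymph node stroma genes 0.40 over 4, Schwann cell genes 0.32 over 2 and red blood cell genes 0.84 over 4, with 0 called in each of these and in the endothelial and lymphocyte lists. At an unadjusted p under 0.05 there were 6 mesothelial genes, all higher, 2 duct genes higher and 1 lower, 1 islet gene higher, 1 Schwann cell gene in each direction, and 0 genes of lymph node stroma and red blood cells. No list in this paragraph had a gene at 0 in every library.

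**Figure D4:**
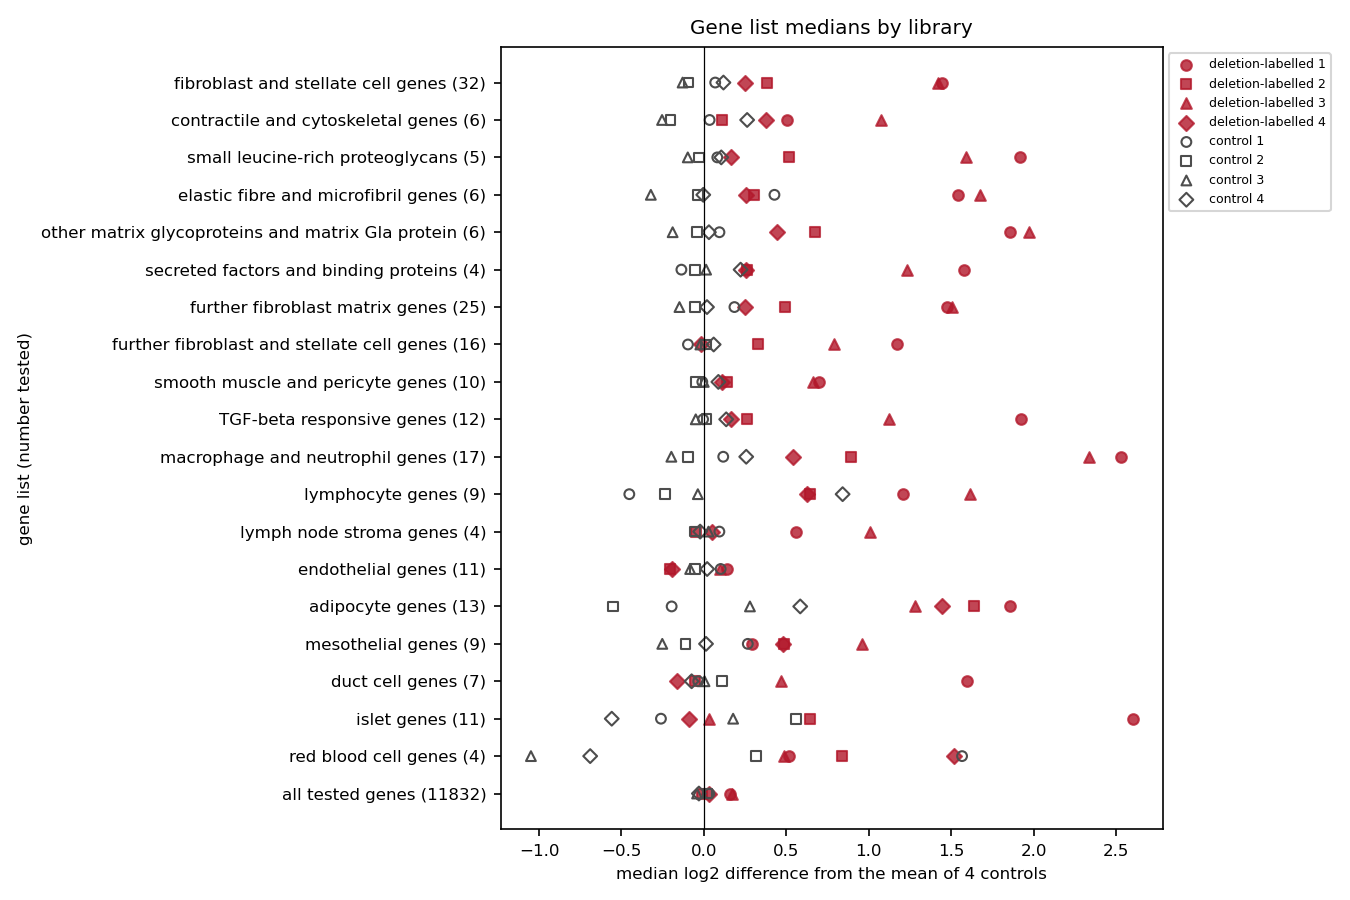
Median log2 difference from the mean of the 4 controls (x axis) for each gene list (y axis, with the number tested), filled for deletion-labelled and open for control libraries; acinar genes, from -6.75 to -0.69 in the deletion-labelled libraries, and lists of 3 or fewer genes are not drawn. In most lists, and over all tested genes, libraries 1 and 3 lie to the right of libraries 2 and 4. Adipocyte, mesothelial, islet and red blood cell genes do not have this order. Endothelial genes have it, but lie between -0.20 and 0.14 in all 8 libraries.

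How far the levels differ depended on how libraries were scaled. Scaling to an equal sum outside the digestive enzymes gave a median log2 fold change of 1.77 over the 32 genes and 0.79 over all genes, and scaling to implied fragment totals gave 2.18 and 1.14. All 32 genes were positive under both and 0 of 32 were called, against 0.177% and 0.0507% of all genes called higher. With sample weights in limma 26 of 32 genes were called higher, against 19.5% of all genes.

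**Figure D5:**
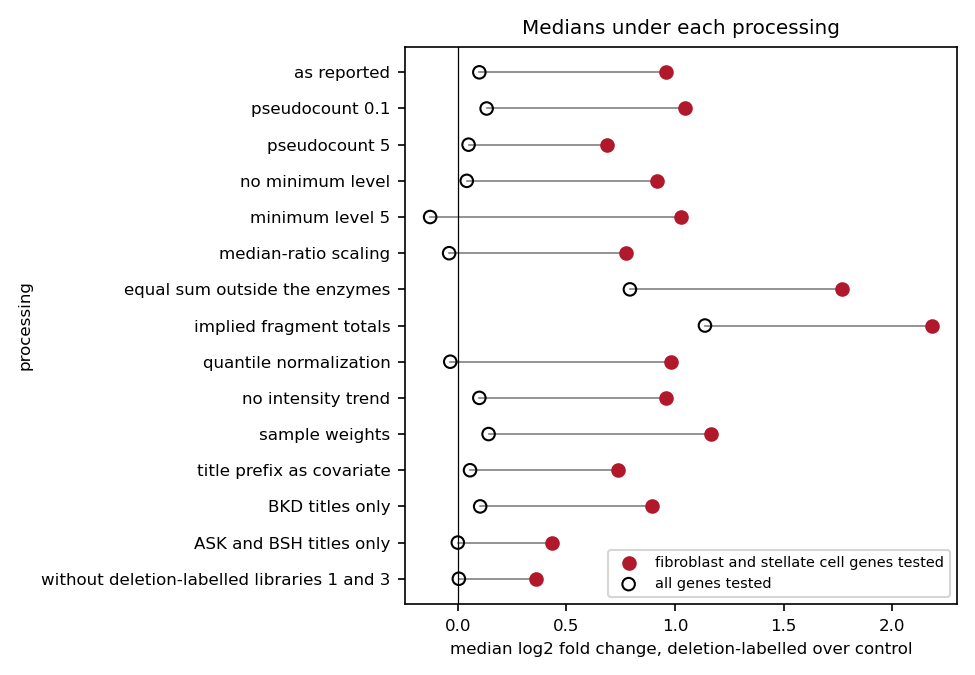
Median log2 fold change (x axis, deletion-labelled over control) of the tested fibroblast and stellate cell genes (filled) and of all tested genes (open) under each processing (y axis). The filled point lies to the right of the open one in every row, with medians of 0.36 and 0.0047 when libraries 1 and 3 are left out and 2.18 and 1.14 with implied fragment totals.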

How the data were processed

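Per the labels' protocols, poly(A) RNA with integrity numbers of 7.1 to 8.8 was made into TruSeq libraries with 8 PCR cycles. Cufflinks 2.0.1 and TopHat2 2.0.4, with Bowtie and CASAVA 1.8, are listed in the submitters' processing notes, as are mm9 and NCBIM37; the sources used here do not give how libraries were scaled. For each library there is a table, deposited by the authors, of FPKM per gene with the bounds of an interval (36448 entries). Values of the 14 IDs on several entries were summed, and all were divided by 100000. Implied fragments are 4 times the square of FPKM over the distance from FPKM to the upper bound; they describe depth, are no fragment counts and cover no variation between animals. The 39 genes with status HIDATA or FAIL in any library were left out; all 35 genes had status OK throughout.

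The test was limma 3.58.1 (R 4.3.3), run two-sided with an intensity trend on the log2 of rescaled FPKM plus 1, for the 11832 genes with a mean of at least 1. The p-values were adjusted by Benjamini-Hochberg across these genes, and 0.05 was the threshold. Fold changes on this scale understate those of low genes. The code was tested on simulated data. The genes and lists, from textbook knowledge, and the alternatives were chosen with earlier results of these data known. Values in every library are given, within each role, for up to 4 tested genes with the largest absolute fold change and the 1 with the smallest, and, chosen after values were seen, for Tnc and Lrat. Of the connective tissue lists, the 2 highest in level are named. Fap, Myh11, Notch3 and Gfap were added after their values were seen, as markers of these cells. Other lists are given as summaries. Strand is not given in the sources used here; Tagln, Fn1 and Igfbp7 overlap another expressed gene.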

Additional observations from a re-analysis of the deposited data

Results flagged for a closer look

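Among 70 groups of 4 libraries (35 genes in each genotype), 3 held a library whose distance from its nearest neighbour was large against the range of its group; chance gives about 1 such group in 20. Myl9, the myosin light chain, was at 9.81 in deletion-labelled library 3, above the other deletion-labelled libraries. Fmod, fibromodulin, was at 1.95 in control 1, above the other controls. Mgp, matrix Gla protein, was at 13.8 in control 1, below the other controls. The difference in effect between title prefixes was also fitted with an interaction term. Control 1 is the only control with a BKD title, and deletion-labelled library 2 the only deletion-labelled library without one. With a single library on these sides, the fit could not decide whether the effect differs between prefixes.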

How the results depend on the processing

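No paired analysis was possible because the labels number no replicates; the numbers 1 to 4 used here follow accession order, only name libraries and tie none together. Of 22 alternatives, sample weights and leaving out deletion-labelled library 4 called any of the 32 genes (26 and 16); over single left-out libraries the count ran from 0 to 16. The count of all genes called, 49, was 21 with an equal sum outside the enzymes, 6 with implied fragment totals, 30 with quantile normalization, 3780 with sample weights, 5 with title prefix as a covariate, 16 within BKD titles, 89 within ASK and BSH titles, 13 without deletion-labelled libraries 1 and 3, and 10 to 2556 without single libraries. The median of the 32 genes was 1.77 with an equal sum outside the enzymes and 2.18 with implied fragment totals, which shift all genes. Gata6 was no longer called at log2 fold changes of 0.90 and 0.38 with pseudocounts of 0.1 and 5, 0.72 both with no minimum level and with no intensity trend, 0.57 both with median-ratio scaling and with quantile normalization, 1.43 with an equal sum outside the enzymes, 1.79 with implied fragment totals, 0.71 with the prefix as a covariate, 0.57 and 0.85 within BKD and within ASK and BSH titles, and 0.69 without libraries 1 and 3. Without single libraries it ran from 0.67 to 0.77, and the call held only without deletion-labelled library 4; it gave no value at a minimum level of 5, which Gata6 does not reach. These Gata6 alternatives were chosen after seeing the data. Tpm2 turned negative with median-ratio scaling (-0.11), quantile normalization (-0.12), the prefix as a covariate (-0.019), BKD titles (-0.069), without libraries 1 and 3 (-0.29), and without deletion-labelled library 3 (-0.18), control 2 (-0.072) or control 3 (-0.15). Over all single left-out libraries Tpm2 ran from -0.18 to 0.31 and Myl9 from -0.0013 to 0.37. Within ASK and BSH titles Vcan (-0.011), Des (-0.18) and Myl9 (-0.039) turned negative, as did Thy1 (-0.0026), Fbln2 (-0.099) and Myl9 (-0.024) without libraries 1 and 3, and Myl9 (-0.0013) without library 3. The cause was not tested. The share of promoters with an exact CArG box was 1.47% over the 250 bases before the start. Few fragments limit Cnn1, Lrat, Tpm2, Vcan and Tnc. In some libraries they also limit Myl9, Fmod, Fbln2, Mfap5 and Des, with minima of 5.9, 6.5, 8.8, 9.7 and 10.1 implied fragments.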
